A study of Mus musculus with 6 samples.

Results

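The genes described here are 9 immediate early genes, chosen by symbol from a table of 17419 genes: the Egr zinc finger factors Egr1, Egr2 and Egr3, the Nr4a orphan nuclear receptors Nr4a1, Nr4a2 and Nr4a3, and the Ier genes Ier2, Ier3 and Ier5. All 9 were in the table and all 9 passed the filter on low counts. RNA had been sequenced in bulk from fibroblasts of the tendon enthesis, where tendon joins bone, of SKG mice, 3 samples labelled diseased and 3 labelled un-diseased. SKG mice carry a Zap70 mutation and are prone to autoimmune arthritis, so both groups share that genotype. Titles carry NTS for the diseased and UN for the un-diseased samples, codes the labels leave unexplained. Age, sex and the way disease arose are not given in the sources used here, nor is it said whether samples came from separate or pooled animals or from passaged cultures. All p-values are therefore set against the spread of these 6 samples alone, and that spread may be technical.

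Immediate early genes are transcribed within minutes of a stimulus such as a growth factor, a cytokine, stretch or stress, without any need for new protein. Kinase cascades reach their promoters through serum response factor with its ternary complex partners, which bind the CArG box, and through CREB, which binds the cAMP response element (CRE); their transcripts are short-lived. In tendon, Egr1 and Egr2 are known as factors that act on collagen genes during development and repair. Nr4a receptors act without a known natural ligand and are strongly cAMP-responsive. Ier3 is known as a regulator of survival and ERK signalling, Ier5 as a partner of the heat shock factor pathway, and Ier2 as a nuclear regulator of early transcription.

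Promoter sequence was available for 6 of the 9 genes (RefSeq, build GRCm38.p6) and is shown for the Nr4a receptors, whose windows share 1 feature, and for Egr2 as a contrast. The 250 bases before each start were searched on both strands for the CRE TGACGTCA, its half-site TGACG (which lies inside the full CRE), the CArG box, the AP-1 site TGACTCA or TGAGTCA, the Egr sites GCGGGGGCG and GCGTGGGCG, and the NF-kB site. Capitals mark matches, and CGTCA is the half-site on the other strand. The Nr4a1 window, chr15:101266596-101266845 on the + strand, lies within the gene span of a longer transcript but in no annotated exon, and that of Nr4a2, chr2:57124004-57124253 on the - strand, lies before the gene. For Nr4a3 a stretch of 30 bases with 2 of its 4 half-sites, chr4:48045080-48045109 on the + strand, is shown, and for Egr2 one of 30 bases, chr10:67537789-67537818 on the + strand. The Nr4a3 stretch lies within the annotated gene, which begins at 48045078, and 152 of the 250 bases of its window are annotated exon. The Egr2 stretch lies within that gene too.
Nr4a1: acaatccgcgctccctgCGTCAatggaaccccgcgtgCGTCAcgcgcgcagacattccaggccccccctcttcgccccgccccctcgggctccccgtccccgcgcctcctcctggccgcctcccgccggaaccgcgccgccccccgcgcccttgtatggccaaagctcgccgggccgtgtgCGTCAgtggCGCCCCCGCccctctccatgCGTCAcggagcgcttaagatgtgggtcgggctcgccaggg
Nr4a2: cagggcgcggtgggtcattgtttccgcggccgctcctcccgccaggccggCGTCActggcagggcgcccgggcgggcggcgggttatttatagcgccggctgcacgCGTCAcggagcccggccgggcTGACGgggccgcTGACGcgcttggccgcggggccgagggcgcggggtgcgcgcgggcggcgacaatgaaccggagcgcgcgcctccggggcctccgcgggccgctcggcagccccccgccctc
Nr4a3: agcgtcccatgtCGTCAcatTGACGtctcg
Egr2: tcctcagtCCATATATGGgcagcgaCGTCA

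Each of the 3 Nr4a windows held 4 CRE half-sites, and none held the full CRE. Among 32851 promoter windows of that length, 17.8% held at least 1 half-site and 45, or 0.137%, held at least 4. That cut of 4 equals the count in the Nr4a windows, which are themselves among the 45. The Nr4a1 window also held 1 Egr site, GCGGGGGCG on the other strand, which 2.57% of windows hold. Egr2 has several annotated starts, and the stretch shown holds a CArG box, found in 1.47% of all windows, next to a half-site. The Ier3 and Ier5 windows had no match to any of these motifs. The motifs were chosen after the counts had been seen. These matches describe letters in a window and are no evidence that a factor was bound.

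Nr4a3 had the largest difference of the 9 genes and was lower in the diseased sample of every same-numbered pair. Values are given in CPM, read counts scaled by TMM to the size of the library. In diseased replicates 1 to 3 Nr4a3 measured 92.5, 307 and 159 CPM, against 261, 556 and 477 CPM in un-diseased replicates 1 to 3. Only diseased replicate 2 reached into the un-diseased range, above un-diseased replicate 1. The means were 186 ± 110 and 431 ± 153 CPM (SD, n = 3 each). The log2 fold change, diseased minus un-diseased, was -1.21 (SE 0.45, adjusted p = 0.141 by edgeR's quasi-likelihood test), which did not pass the threshold of 0.05.

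Same-numbered samples shared deviations across the transcriptome, though the labels name no batch and the pairing rests on these same data. The fit with the replicate number as a block is given beside each gene whose call it changed. With the block Nr4a3 fell, at -1.31 (SE 0.16, adjusted p = 0.00231 by edgeR). Within pairs 1, 2 and 3 un-diseased over diseased was 2.82-fold, 1.81-fold and 3.00-fold. DESeq2 without the block also called it, at -1.22 with an adjusted p of 0.0280. In the authors' deposited table its log2 ratio of un-diseased over diseased is 1.23 with a q-value of 0.0360, the only one of the 9 q-values below 0.05.

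In diseased replicates 1 to 3 Nr4a1, the receptor with the highest level per kilobase, measured 683, 804 and 922 CPM, against 1237, 878 and 1004 CPM in un-diseased replicates 1 to 3. It was lower in diseased in all 3 pairs, but the groups overlapped, since diseased replicate 3 lay above un-diseased replicate 2. Its log2 fold change was -0.37 (SE 0.18, adjusted p = 0.228 by edgeR), and the block gave the same size with an adjusted p of 0.153. The within-pair fold of un-diseased over diseased was 1.81 in pair 1 and 1.09 in both other pairs. Most of the difference thus lay in pair 1.

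Nr4a2 measured 136, 259 and 202 CPM in diseased replicates 1 to 3, against 181, 224 and 259 CPM in un-diseased replicates 1 to 3. The groups overlapped widely and pair 2 ran the other way. The log2 fold change was -0.16 (SE 0.24, adjusted p = 0.693 by edgeR; 0.336 with the block), and it turned to 0.06 without diseased replicate 1.

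**Figure D1:**
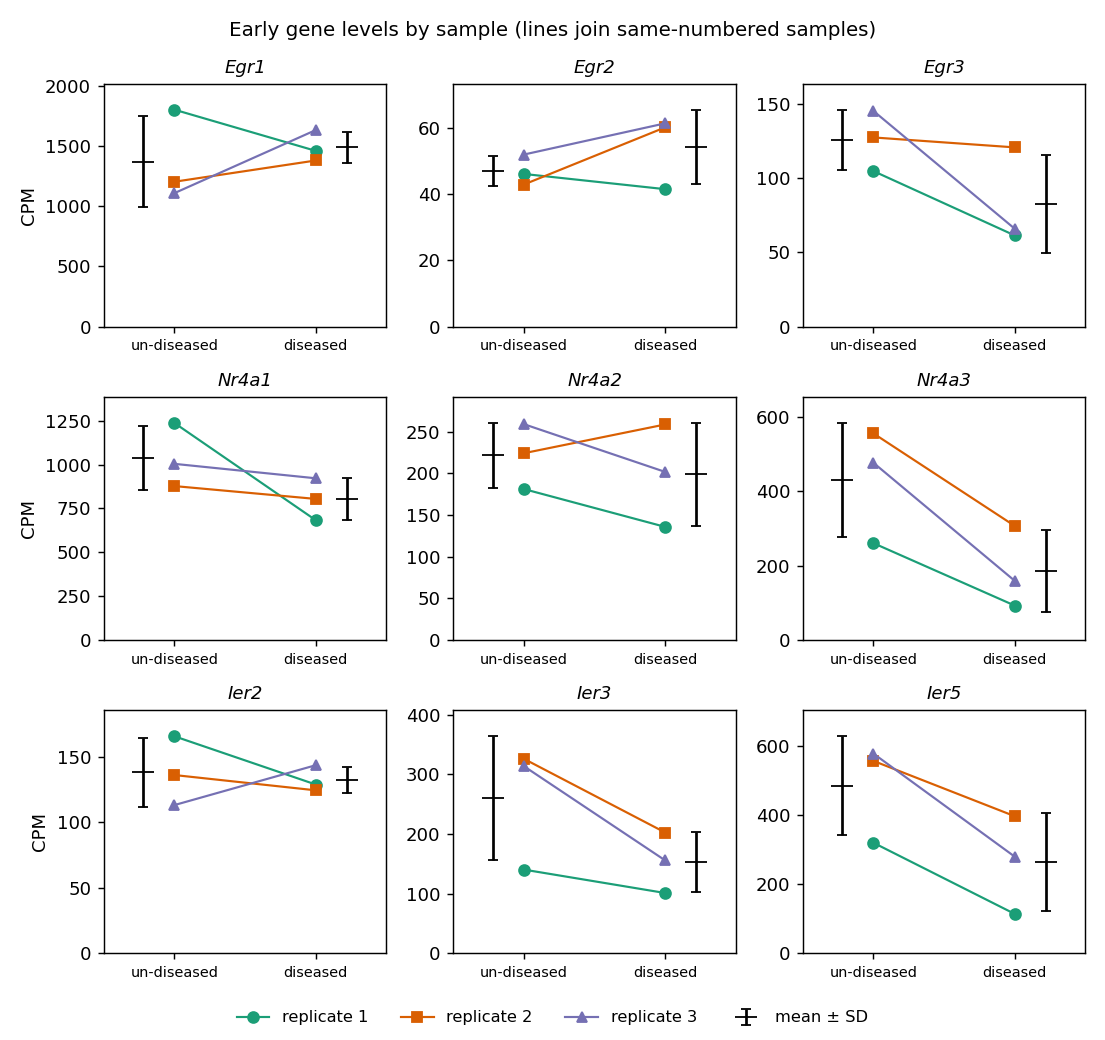
CPM of the 9 early genes in each sample, 1 panel a gene, with un-diseased samples at the left and diseased at the right of each panel. Lines join same-numbered samples, and black bars are the mean ± SD of 3 samples. All lines of Nr4a3, Ier3, Ier5, Egr3 and Nr4a1 slope down, whereas those of Egr1, Egr2, Nr4a2 and Ier2 slope in both directions.

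Of the Ier genes, Ier3 and Ier5 were lower in the diseased sample of each pair and Ier2 was not. In diseased replicates 1 to 3 Ier5 measured 114, 396 and 279 CPM, against 319, 556 and 577 CPM in un-diseased replicates 1 to 3. Diseased replicate 1 was far below the rest, and diseased replicate 2 lay above un-diseased replicate 1. Its log2 fold change was -0.88 (SE 0.43, adjusted p = 0.227 by edgeR), and with the block Ier5 fell, at -1.01 (SE 0.18, adjusted p = 0.00791 by edgeR). That blocked call was lost without pair 3, with -0.99 and an adjusted p of 0.0679.

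Ier3 measured 101, 202 and 156 CPM in diseased replicates 1 to 3, against 140, 326 and 314 CPM in un-diseased replicates 1 to 3. Un-diseased replicate 1 lay among the diseased samples, while the other two un-diseased ones were above all of them. The log2 fold change was -0.77 (SE 0.36, adjusted p = 0.210 by edgeR), and with the block Ier3 fell, at -0.73 (SE 0.12, adjusted p = 0.00662 by edgeR). Its within-pair folds of un-diseased over diseased were 1.39, 1.61 and 2.02 in pairs 1, 2 and 3.

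Ier2 measured 129, 124 and 143 CPM in diseased replicates 1 to 3, against 165, 136 and 113 CPM in un-diseased replicates 1 to 3. The un-diseased samples spanned the whole diseased range. Its log2 fold change of -0.06 (SE 0.15, adjusted p = 0.803 by edgeR) turned to 0.01 with upper-quartile scaling, so no direction is given for it.

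Of the Egr genes, Egr3 was the one with lower values in all diseased samples of the pairs. Egr3 measured 61.3, 121 and 65.8 CPM in diseased replicates 1 to 3, against 105, 127 and 145 CPM in un-diseased replicates 1 to 3. Diseased replicates 1 and 3 were below every un-diseased sample, and diseased replicate 2 was within their range. The log2 fold change was -0.61 (SE 0.27, adjusted p = 0.187 by edgeR), and with the block Egr3 fell, at -0.66 (SE 0.18, adjusted p = 0.0329 by edgeR). Without pair 1 the blocked adjusted p was 0.0930 and without pair 3 it was 0.191, at -0.62 and -0.42, and neither passed.

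Egr1 had the highest mean of all 9 per kilobase in each group, though not the highest value in every sample. In diseased replicates 1 to 3 Egr1 measured 1460.5, 1381 and 1633 CPM. The values in un-diseased replicates 1 to 3 were 1803, 1204 and 1109 CPM. The highest and the lowest sample were both un-diseased. The difference on the log2 scale was 0.12 (SE 0.21, adjusted p = 0.732 by edgeR), and pair 1 had the opposite sign of pairs 2 and 3. Without un-diseased replicate 3 the value was -0.01.

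Egr2 had the lowest mean of all 9 per kilobase in each group, though not the lowest value in every sample. It measured 41.5, 60.1 and 61.4 CPM in diseased replicates 1 to 3. The values in un-diseased replicates 1 to 3 were 46.1, 42.9 and 51.9 CPM. Diseased replicates 2 and 3 were above all un-diseased samples and diseased replicate 1 below them. The log2 fold change was 0.21 (SE 0.16, adjusted p = 0.421 by edgeR; 0.299 with the block). Misses of this size do not show that Egr1, Egr2, Nr4a2 and Ier2 were equal between groups.

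**Figure D2:**
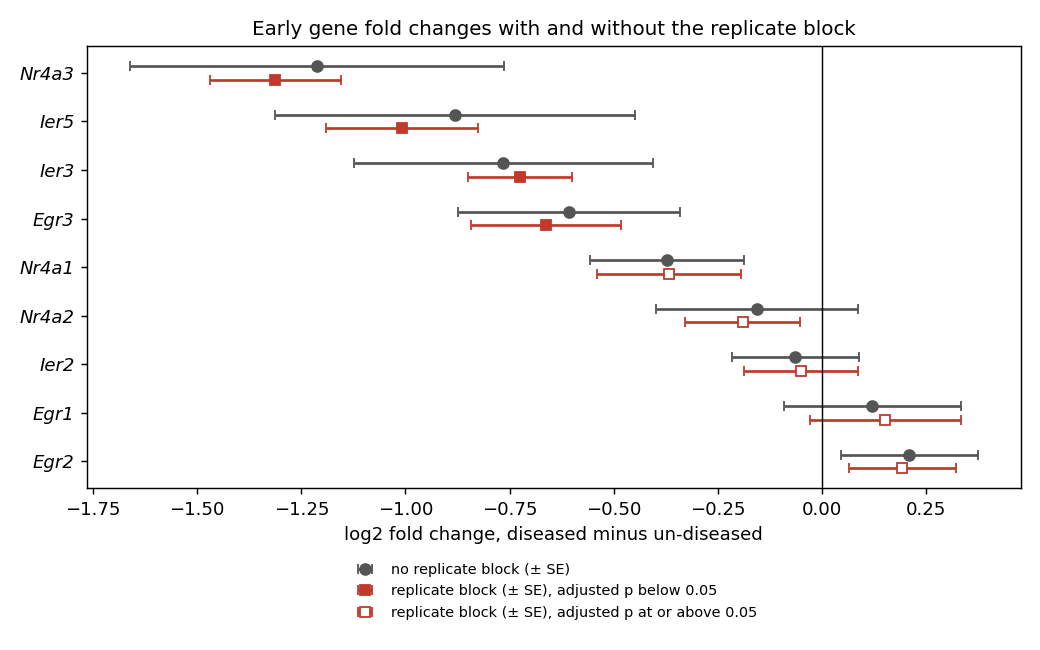
Log2 fold change (diseased minus un-diseased) of each early gene ± SE, without the replicate block (grey circles) and with it (red squares, filled where the adjusted p was below 0.05). The 4 filled squares, Nr4a3, Ier5, Ier3 and Egr3, lie between -1.31 and -0.66, and the block changed the standard errors more than the values.

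Counted together, 0 of the 9 genes passed without the block, where 3.73% of the 13264 tested genes did by edgeR (2.13% lower and 1.61% higher), and 1 of 9 had an unadjusted p below 0.05, where 27.8% of tested genes did. DESeq2 without the block called 1 of 9 lower, Nr4a3, beside 6.38% of its tested genes. With the block 4 of 9 fell and 0 rose, beside 13.3% of tested genes that fell and 10.5% that rose. The median log2 fold change of the 9 was -0.37, against 0.02 over all tested genes. Of the 9 values 7 were negative, beside 48.2% of tested genes. All 3 pairs were lower in diseased for 5 of the 9 genes, beside 30.1% of tested genes, namely Egr3, Nr4a1, Nr4a3, Ier3 and Ier5. In pair 1 all 9 were lower in the diseased sample, and in pairs 2 and 3 there were 6 each. Of the 13264 tested genes, 6699, 6454 and 6447 were lower in the diseased sample of pairs 1, 2 and 3. For 0 of the 9 genes were the groups free of overlap, beside 31.9% of tested genes (15.4% without overlap and lower in diseased). In bulk samples fewer cells of a type and less RNA per cell cannot be told apart.

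The 9 genes fell into more than 1 pattern over the samples. Egr1, Nr4a1 and Ier2 had their highest value of all 6 samples in un-diseased replicate 1, at 1.34, 1.55 and 1.60 SD above their own mean log2 CPM. Nr4a3, Ier3 and Ier5 were instead at or below their mean in that sample, at 0.00, -0.64 and -0.05 SD, and highest in un-diseased replicates 2 and 3. For 7 of the 9 genes, diseased replicate 1 was the lowest of the 6 samples, the exceptions being Egr1 and Ier2. The share of all tested genes lowest in that sample was not computed, so this count is no trait of the 9 genes. A list of 12 heat shock genes had a summed level of 13280 CPM in un-diseased replicate 1 and 5961 to 8867 in the other 5 samples. Hspa8, a constitutive chaperone with the highest mean CPM of that list, had 4173 CPM there and 2022 to 3382 elsewhere, and the part of this in the Egr1, Nr4a1 and Ier2 values was not tested.

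**Figure D3:**
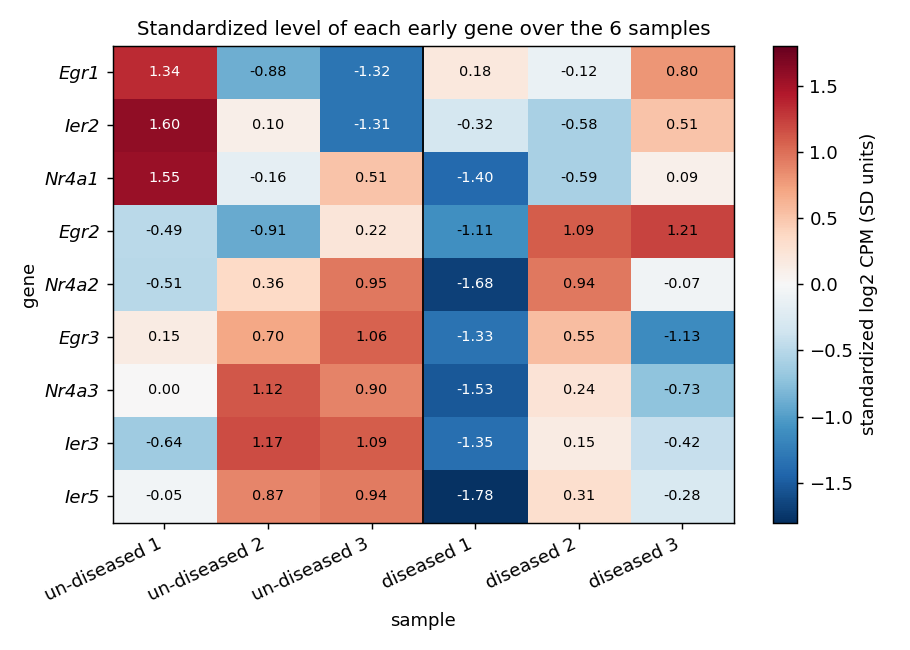
Log2 CPM of each gene (rows) in each sample (columns), standardized to the gene's own mean and SD over the 6 samples; red is above and blue below the mean. Un-diseased replicate 1 is the reddest cell for Egr1, Ier2 and Nr4a1, at 1.34 to 1.60, whereas diseased replicate 1 is the bluest for 7 of 9 genes. The share of all tested genes lowest in diseased replicate 1 was not computed.

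Ratios between relatives within a sample do not depend on library scaling, and all 9 pairings within the families were computed, after the values had been seen. The ratio of Nr4a3 to Nr4a2 counts was 0.681, 1.19 and 0.788 in diseased replicates 1 to 3, against 1.44, 2.48 and 1.84 in un-diseased replicates 1 to 3, and was below 1 in diseased replicates 1 and 3 only. The groups did not overlap (exact permutation test, two-sided, p = 0.1, the smallest that 3 against 3 allows; 0.45 adjusted over the 9 ratios). Beside it, 12.2% of all other tested genes had a ratio to Nr4a2 without overlap.

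The ratio of Egr3 to Egr2 was 1.48, 2.01 and 1.07 in diseased replicates 1 to 3, against 2.27, 2.97 and 2.80 in un-diseased replicates 1 to 3. These groups did not overlap either (exact permutation p = 0.1, adjusted 0.45), where 20.7% of other tested genes had such a ratio to Egr2. The other 7 ratios overlapped, with exact permutation p from 0.2 to 1, beside non-overlapping ratios to Nr4a1, Egr1, Ier2 and Ier3 in 38.8%, 13.1%, 19.5% and 11.3% of other tested genes. In 6 of the 9 ratios the diseased sample was lower in all 3 pairs: Nr4a3 to Nr4a1, Nr4a3 to Nr4a2, Egr3 to Egr1, Egr3 to Egr2, Ier3 to Ier2 and Ier5 to Ier2. Their numerators, Nr4a3, Egr3, Ier3 and Ier5, are the genes that fell with the block. These 6 ratios share genes, so they are not separate results, and no share over other genes was computed for this count. Unequal change within a family says nothing of which relative changed.

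**Figure D4:**
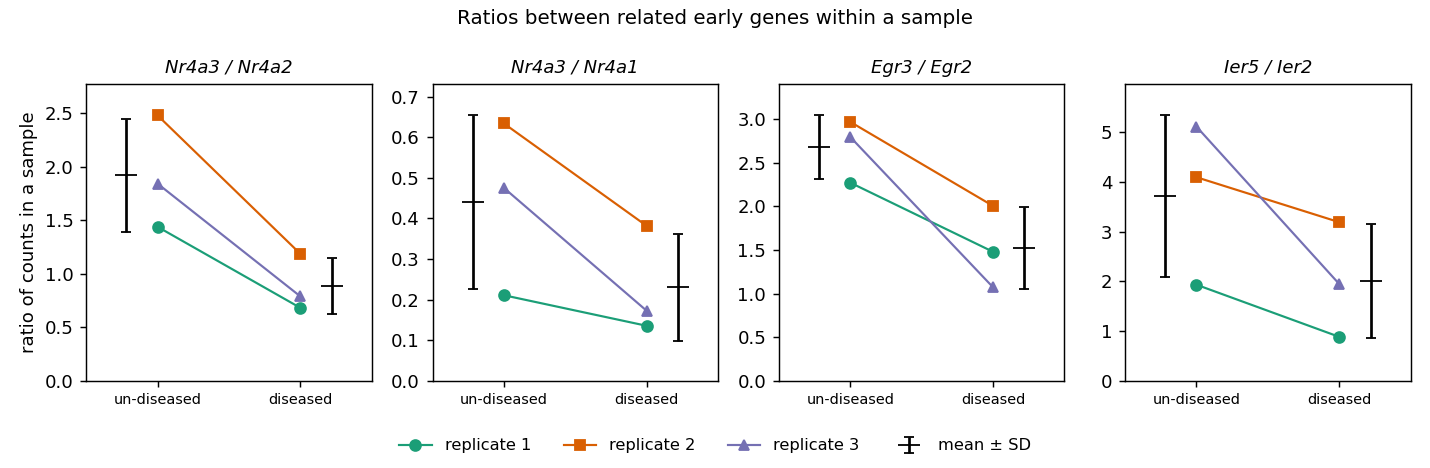
Ratio of the read counts of 2 related genes within each sample, for 4 of the 9 ratios, with lines joining same-numbered samples and bars for the mean ± SD of 3 samples. Nr4a3 / Nr4a2 and Egr3 / Egr2 are lower in each diseased sample than in any un-diseased one; Nr4a3 / Nr4a1 and Ier5 / Ier2 overlap.

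To order the 9 genes by level, CPM was divided by kilobases of exon (CPM per kb, from GENCODE vM21 exons). In un-diseased samples the order was Egr1 (306 ± 83.9 CPM per kb), Nr4a1 (296 ± 52.0), Ier3 (230 ± 91.9), Ier5 (148 ± 43.7), Ier2 (90.7 ± 17.3), Nr4a3 (72.1 ± 25.6), Nr4a2 (54.6 ± 9.62), Egr3 (28.5 ± 4.60) and Egr2 (13.8 ± 1.35; SD, n = 3). Neighbours overlapped over samples down to Nr4a2, while Nr4a2 over Egr3 and Egr3 over Egr2 did not overlap. In diseased samples Egr1 (333 ± 28.8) and Nr4a1 (229 ± 34.1) stood apart from each other and from the rest. Below them the order was Ier3 (135 ± 44.9), Ier2 (86.8 ± 6.59), Ier5 (80.2 ± 43.3), Nr4a2 (49.0 ± 15.2), Nr4a3 (31.1 ± 18.3), Egr3 (18.7 ± 7.49) and Egr2 (16.0 ± 3.28), each overlapping the next. Ier5 and Ier2 thus exchanged places, as did Nr4a3 and Nr4a2. On the genome (GRCm38) the 9 genes lie on 9 chromosomes, among them Nr4a3 on chromosome 4 from 48045078 to 48086447, Ier3 on chromosome 17 from 35821713 to 35822911, Ier5 on chromosome 1 from 155096367 to 155099636, Nr4a1 on chromosome 15 from 101253902 to 101274795, Nr4a2 on chromosome 2 from 57106830 to 57124003, Ier2 on chromosome 8 from 84661331 to 84662852, Egr2 on chromosome 10 from 67534469 to 67542188 and Egr3 on chromosome 14 from 70077317 to 70082613. No exon of the 9 shares bases with an exon of another annotated gene.

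In the lists that follow, the gene with the highest mean CPM was named where none passed. CPM is not scaled by length, so this sets no order of levels. The counts of these lists and of the cell type markers are to be read beside shares over all tested genes. Without the block 3.73% passed by edgeR, 27.8% had an unadjusted p below 0.05, and DESeq2 called 11% of its own tested genes. With the block 10.5% rose and 13.3% fell by edgeR. Of 10 early genes of the AP-1 family, 0 passed without the block (5 had an unadjusted p below 0.05, and DESeq2 called 4), and with it 1 rose and 4 fell, with a median log2 fold change of -0.19 without the block. Fosb, a dimer partner of Jun proteins and the one with the highest mean CPM of the list, averaged 2215 ± 173 CPM over the diseased and 2223 ± 78.8 CPM over the un-diseased samples (SD, n = 3). The blocked calls were Fos, which rose, and Fosl1, Fosl2, Maff and Mafk, which fell; they were named after their values were seen. Fosl1, a late-acting Fos relative, had 55.8, 108 and 99.3 CPM in diseased replicates 1 to 3, against 130.3, 181 and 210 CPM in un-diseased replicates 1 to 3, without overlap. Maff, a small Maf factor, had 86.1, 201 and 151 against 267, 385 and 309 CPM, also without overlap. Fos, which rose, had 1280, 934 and 1236 CPM in diseased replicates 1 to 3. In un-diseased replicates 1 to 3 Fos had 933, 618 and 712 CPM, again without overlap.

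Among 24 other early genes 0 passed without the block (6 had an unadjusted p below 0.05, and DESeq2 called 1), and 3 rose and 8 fell with it (median -0.36 without the block). Zfp36, which encodes the mRNA decay factor tristetraprolin and had the highest mean CPM of the list, averaged 1201 ± 216 CPM over the diseased and 985 ± 306 CPM over the un-diseased samples (SD, n = 3). The blocked rises were Plk3, Klf2 and Klf6, and the falls were Btg1, Klf4, Myc, Plk2, Csrnp1, Phlda1, Gadd45g and Tiparp. Klf6, the 1 gene called by DESeq2, had 672, 731 and 704 CPM in diseased replicates 1 to 3. In un-diseased replicates 1 to 3 Klf6 had 483, 553 and 527 CPM, without overlap. Myc, a growth regulator, had 70.6, 214 and 142 CPM in diseased replicates 1 to 3, against 163, 372 and 358 CPM in un-diseased replicates 1 to 3, and the groups overlapped.

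In the list of 14 feedback inhibitors of MAPK signalling, the cascade upstream of Egr and Ier genes, 0 passed without the block (4 had an unadjusted p below 0.05, and DESeq2 called 3), and 2 rose and 5 fell with it (median -0.31 without the block). Errfi1, an inhibitor of EGF receptor kinases with the highest mean CPM of the list, measured 687, 1337 and 933 CPM in diseased replicates 1 to 3, against 1247, 2677 and 3394 CPM in un-diseased replicates 1 to 3. Diseased replicate 2 was above un-diseased replicate 1, and the log2 fold change was -1.31 (SE 0.39, adjusted p = 0.100 by edgeR; 0.00650 with the block). Besides Errfi1, Spry2, Spry4, Spred1 and Dusp10 fell with the block, whereas Dusp1 and Dusp6, phosphatases of MAP kinases, rose. Dusp1 had 597.6, 583.5 and 608.8 CPM in diseased replicates 1 to 3. In un-diseased replicates 1 to 3 Dusp1 had 416.5, 382.3 and 485.4 CPM, without overlap.

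Of the factors that read MAPK signals at CArG boxes, 1 of 6 tested passed without the block (2 had an unadjusted p below 0.05, and DESeq2 called 2, Elk3 and Srf). Elk3, a ternary complex factor, rose, with 53.2, 60.7 and 56.8 CPM in diseased replicates 1 to 3, against 38.2, 37.1 and 38.7 CPM in un-diseased replicates 1 to 3. Elk3 differed by 0.58 on the log2 scale (SE 0.09, adjusted p = 0.0267 by edgeR), and the call was lost on leaving out any 1 sample other than un-diseased replicate 1 (adjusted p 0.0533, 0.0525 and 0.133 on leaving out diseased replicate 1, 2 or 3, and 0.0914 and 0.0797 on leaving out un-diseased replicate 2 or 3). Its value stayed between 0.53 and 0.63 in those fits, and the call held with the block (adjusted p = 0.00593 by edgeR, and 0.0115, 0.0233 and 0.0446 without pair 1, 2 or 3). Srf itself averaged 46.1 ± 7.50 CPM in diseased and 65.2 ± 7.86 CPM in un-diseased samples (SD, n = 3), without overlap. It did not pass edgeR without the block (adjusted p = 0.0958), but fell with it (0.00759) and by DESeq2 without it (0.0428).

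Among 13 tested CREB and MEF2 factors and coactivators 0 passed without the block (5 had an unadjusted p below 0.05, and DESeq2 called 0), and with it 0 rose and 5 fell, namely Creb1, Crem, Atf1, Crtc3 and Mef2a. Their median was -0.25, and 11 of 13 values were negative. Mef2a, a MEF2 family factor that had the highest mean CPM of the list, measured 100.2, 144 and 107 CPM in diseased replicates 1 to 3, against 134, 215 and 168 CPM in un-diseased replicates 1 to 3. Diseased replicate 2 was above un-diseased replicate 1, and the blocked call of Mef2a (adjusted p = 0.00728 by edgeR) was lost without pair 3 (-0.50, adjusted p = 0.0563).

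Of 9 relatives and partners, including Egr4, the Egr corepressors Nab1 and Nab2 and the Nr4a partners Rxra, Rxrb and Rxrg, 0 passed without the block (2 had an unadjusted p below 0.05, and DESeq2 called 0). With it Rxra rose and Nab1 fell. Nab1 had 68.3, 91.2 and 81.0 CPM in diseased replicates 1 to 3, against 97.2, 117 and 108 CPM in un-diseased replicates 1 to 3. The Nab1 groups did not overlap, and its blocked call (adjusted p = 0.0129 by edgeR) was lost without pair 3 (-0.43, adjusted p = 0.0686).

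Tendon genes linked to Egr1 and Egr2 had a positive median of 0.68 over 12 genes, and 1 rose by edgeR without the block and 5 with it, Scx, Mkx, Fmod, Bgn and Col5a1, while 0 fell in either fit. An unadjusted p below 0.05 was found for 8 of the 12, 7 higher and 1 lower, and DESeq2 without the block called 7 higher and 1 lower. The lower one was Dcn, the proteoglycan decorin, named after its values were seen, with 6601, 6910 and 6458 CPM in diseased replicates 1 to 3, against 9141, 10250 and 9479 CPM in un-diseased replicates 1 to 3, without overlap. For Dcn the log2 fold change was -0.53 (adjusted p = 0.110 by edgeR, 0.0588 with the block and 3.08e-05 by DESeq2). Fmod, the collagen-binding proteoglycan fibromodulin, had 1213, 1451 and 936 CPM in diseased replicates 1 to 3, against 656, 602 and 514 CPM in un-diseased replicates 1 to 3, without overlap. Its log2 fold change was 1.02 (SE 0.20, adjusted p = 0.0392 by edgeR). The call was lost on leaving out any 1 sample other than un-diseased replicate 1 (adjusted p 0.0771, 0.0608 and 0.117 on leaving out diseased replicate 1, 2 or 3, and 0.113 and 0.116 on leaving out un-diseased replicate 2 or 3). The Fmod value stayed between 0.86 and 1.17 in those fits, and the call held with the block (adjusted p = 0.00334 by edgeR, and 0.0118, 0.00503 and 0.0263 without pair 1, 2 or 3). Of 12 heat shock genes 0 passed without the block (1 had an unadjusted p below 0.05, and DESeq2 called 1), and with it 1 fell, Dnajb4.

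**Figure D5:**
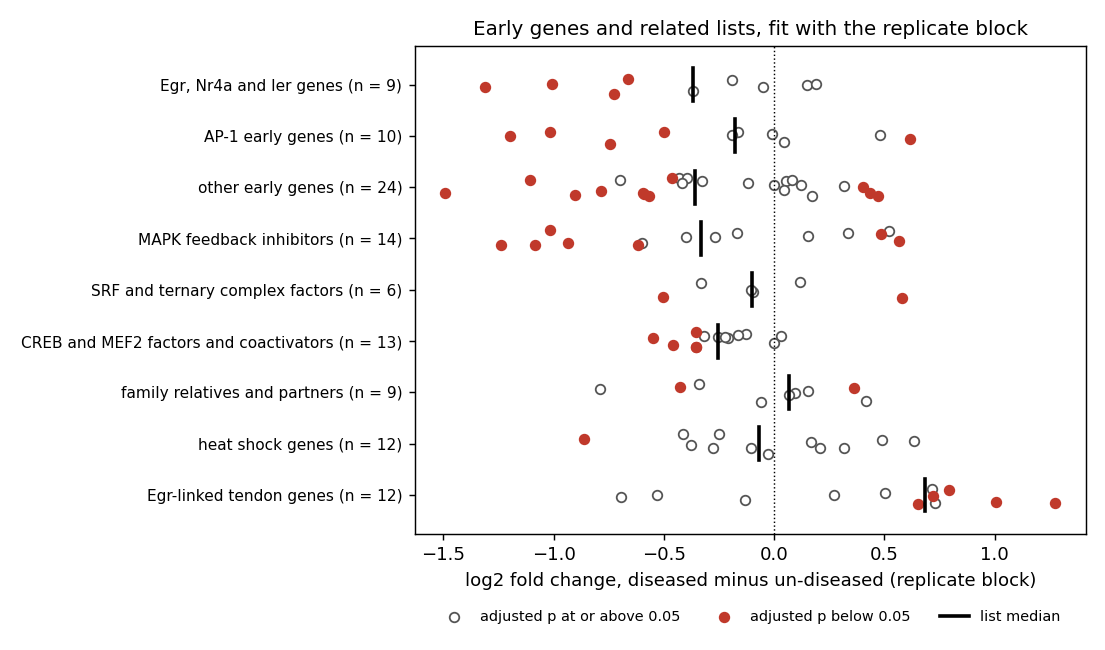
Log2 fold change with the replicate block of every tested gene in the 9 lists (1 point a gene, with random vertical scatter), filled red where the adjusted p was below 0.05; the black bar is the list's median. The 4 called Egr, Nr4a and Ier genes and the 5 called CREB and MEF2 factors are all below 0, and the 5 called tendon genes all above.

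Closest in pattern over the 6 samples to the mean standardized level of the 9 genes, among 10331 genes whose log2 CPM averaged 2 or more, were Gcat, Gadd45b, Sft2d1, Tjap1 and Rnf185. Their root mean square differences from it were 0.389, 0.401, 0.402, 0.403 and 0.403 SD. The mean itself was -1.15 SD in diseased replicate 1 and between -0.00324 and 0.337 SD in the other samples. It thus mostly followed 1 low sample. None of the 5 nearest genes passed without the block (adjusted p 0.328 to 0.430 by edgeR). Gadd45b, a stress-inducible growth arrest gene, is itself on the list of other early genes, and averaged 156 ± 45.8 CPM over the diseased and 189 ± 4.59 CPM over the un-diseased samples (SD, n = 3).

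Sample facts that touch these values were as follows, with marker counts to be read beside the shares over all tested genes given before the lists. Total counts lay between 16720605 and 18290870. Summed fibroblast markers were at 64230 to 90730 CPM in un-diseased and 85220 to 119100 in diseased samples, a sum made mostly of Col1a1, Col1a2 and Col3a1, which are also on the tendon list. Of those 10 markers 7 had positive and 3 negative values (Dcn, Pdgfra and Pdpn), 0 passed without the block (5 had an unadjusted p below 0.05, and DESeq2 called 4), and Pdgfrb and Thy1 rose with it. Macrophage markers, cells that also use early genes, summed to 49.5 to 295 CPM in un-diseased and 224 to 594 in diseased samples; 0 of 18 passed without the block (7 had an unadjusted p below 0.05, and DESeq2 called 3), 17 rose with it, and none was at 0 in all samples (Fcgr1 was at 0 in un-diseased replicate 3). Neutrophil markers summed to 8.30 to 223 CPM in un-diseased and 36.8 to 181 in diseased samples, endothelial ones to 60.3 to 86.3 and 50.9 to 68.6, pericyte ones to 220.8 to 256.8 and 186 to 257, T cell ones to 5.11 to 13.1 and 4.55 to 12.8, and skeletal muscle ones to 3.69 to 6.78 and 3.18 to 3.74. The endothelial sum was mostly Tek, which averaged 37.8 CPM in diseased and 63.6 CPM in un-diseased samples, whereas 7 of the 9 tested endothelial markers had positive values (median 0.33). Of these markers other than macrophage and fibroblast ones, 1 passed without the block, Erg of the endothelial list, which rose. With the block Tie1, Egfl7, Cxcr2, Csf3r and S100a9 rose as well, and Tek, Abcc9 and Cd3e fell. The part of these cells in the early gene values was not tested.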

How the data were processed

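RNA of 6 bulk samples was read in pairs on a BGISEQ-500, per the labels. The deposited table gave estimated counts per gene and sample, of which 9.61% were not whole and were rounded here. It also gave the authors' log2 ratio and the authors' p-value and q-value per gene, used only where named. Listed per the submitters' processing notes, with no role given, are RSEM 1.3.1, DESeq2 1.4.5, HISAT2 2.0.4 and the build GRCm38; the strand setting is not given in the sources used here.

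In R 4.3.3, edgeR 4.0.16 filtered genes by filterByExpr (minimum count 10), scaled them by TMM and tested them by its quasi-likelihood test with Benjamini-Hochberg adjustment over 13264 genes at 0.05. The limit allowed by a 0, 3 counts, equals 0.147 to 0.188 CPM depending on the sample, for counting error only. Log2 CPM used a prior count of 2. DESeq2 1.42.0 and limma 3.58.1 (voom), other scalings, filters and left-out samples were alternatives. The steps were run on simulated counts that held no effect of the replicate number. That run could therefore not test the block where samples pair. Deviations of same-numbered samples from their group means correlated over genes at 0.487, 0.578 and 0.276 for replicates 1, 2 and 3. Differently numbered samples correlated at -0.531 to 0.137, the highest for diseased replicate 3 with un-diseased replicate 1. Deviations from a group mean cancel out within the group, so these values are not independent of the same-numbered ones. The numbers, from the labels, were therefore taken to pair the samples. That choice rests on these same data and on no stated batch.

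The members and lists were chosen with earlier results of these data known. Named were all members, up to 3 called genes of each list or else its gene of highest mean CPM, and the 5 nearest patterns; list genes called only with the block were named after their values were seen. Of 185 list entries 184 were in the table, 4 of them under newer symbols.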

Additional observations from a re-analysis of the deposited data

How the results depend on the processing

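Each gene's log2 fold change was taken under 18 alternatives. The threshold of 0.01, counted among them, reused the main fit, so its values for the 9 genes could not differ. Of the 162 values for the 9 genes, 138 kept their direction and their side of the threshold, 18 newly passed it and 6 changed sign. Of these, Egr1 was at -0.0525 with the block without pair 3, and Ier2 at 0.0147 with upper-quartile factors and 0.0930 with the block without pair 1. Leaving out 1 sample moved Egr1 from -0.0116 (un-diseased replicate 3 left out) to 0.363, Nr4a2 from -0.392 to 0.0568 (diseased replicate 1 left out) and Ier2 from -0.190 to 0.0820 (un-diseased replicate 1 left out). Egr3, Nr4a3, Ier3, Ier5 and Nr4a1 were negative under all 18. The genes named from the other lists were put through the same alternatives, chosen after seeing the data for all but the block. Fosb was at 0.0745 with upper-quartile factors and 0.0728 with the block without pair 1, and between -0.0451 and 0.0589 on leaving out 1 sample. Hspa8 was at 0.0845 with the block without pair 1.

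The number of early genes called higher was 0 under every alternative. The number called lower was 0 with other scalings, filters and limma-voom, at a threshold of 0.01 and on leaving out any 1 sample; it was 1 with DESeq2, 4 with the replicate block, 4 with DESeq2 and the replicate block, and 2 to 4 with the replicate block without 1 pair (3 without pair 1, 4 without pair 2 and 2 without pair 3). Paired calls moved over the whole table as well. Of all genes, 213 were called higher and 282 lower; the replicate block gave 1397 and 1770, DESeq2 640 and 874, DESeq2 with the replicate block 808 and 1378, and the block without pairs 1, 2 and 3 gave 1013, 809 and 426 higher and 1556, 1274 and 583 lower. Upper-quartile factors gave 417 higher (59.1% of calls, against 43% with TMM) and moved the median of all genes to 0.10. A threshold of 0.01 left 2 and 2. Leaving out 1 sample gave 2 to 354 higher and 3 to 721 lower, fewest without diseased replicate 3 and most without un-diseased replicate 1. The causes were not tested. Each early gene had at least 685 counts in every sample.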
